A study of Mus musculus with 15 samples.

Results

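The cap mesenchyme of the newborn mouse kidney was compared between postnatal day 2 (P2) and postnatal day 1 (P1). At this step, in these pools, genes of cell division and of the renal vesicle were called higher. No gene of the cap mesenchyme list given below was called in the fit used. The comparison rested on 6 of the 15 samples of the series, 3 pools of P1 and 3 of P2, chosen from the age and tissue that the sample labels give. The cells carried Tg(Crym-EGFP)82Gsat, a bacterial artificial chromosome transgene in which Crym sequence drives green fluorescent protein, on the CD-1 strain, and had been isolated by trypsin and fluorescent sorting. All pups, on every day, came from time-mated Crym transgenic dams and were raised by CD-1 foster females, and no untreated or non-transgenic group was in the samples used here. Each pool held about 4 kidneys, sex was labelled unknown, the sorting gate was not given in the sources used here, and the labels do not say whether the 3 pools of an age had different litters. The p-values therefore cover the variation among these pools and no more. The other 9 pools, of cap mesenchyme at P0 and P3 and of renal vesicle at P4, shared in the estimate of that spread, and P0 and P3 are used below to place a P1 or P2 level in its sequence of days.

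Cap mesenchyme is the layer of nephron progenitors that surrounds each tip of the branching ureteric bud. Its cells divide and renew under Six2 and Cited1, or, in response to Wnt signals, condense into a pretubular aggregate and then a renal vesicle, the epithelial sphere from which a nephron forms. Wnt4, Lhx1, Pax8, Jag1, Bmp2 and Ccnd1 mark that transition. In mice the last nephrons are begun within a few days of birth, after which the progenitors are gone.

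Transcripts were measured on whole-transcript microarrays of 1 colour, and the values as deposited are log2 signals. All differences below are P2 minus P1 in those log2 units, so that 1 unit is a doubling. A gene was called when limma's moderated test over all 15 pools, with the replicate number as a block and p-values adjusted by Benjamini-Hochberg over 11885 genes, gave an adjusted p under 0.05. The deviations of same-numbered P1 and P2 pools from their day means correlated at 0.797, 0.491 and 0.559 across genes. With a first replicate in the pair, unlike numbers gave -0.704 to -0.509. P1 replicate 3 with P2 replicate 2, however, gave 0.552 and P1 replicate 2 with P2 replicate 3 gave 0.350, so that numbers 2 and 3 were not set apart from each other. Deviations from a day mean cancel out within the day, so a positive value for same-numbered pools by itself brings negative ones among unlike numbers. The first replicates of every day formed an array set of their own, with an interquartile range of 2.14 to 2.27 log2 units against 2.52 to 2.77 in the other arrays. The medians of all arrays lay between 6.80 and 6.92.

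The sorted pools carried the markers of their label. All 8 cap mesenchyme markers were above the filter (log2 6.86) in all 6 pools, and their summed linear signal was 8824 to 11975 at P1 and 7895 to 11891 at P2. None of 4 endothelial markers (Pecam1, Cdh5, Kdr and Tek) and none of 4 macrophage markers (Csf1r, Adgre1, C1qa and Lyz2) was above it in all 6 pools, nor was the podocyte marker Nphs1. Of 5 ureteric bud markers, Wnt9b alone was. The proximal tubule markers Lrp2 and Hnf4a and the red cell marker Alas2 were above it in all 6 pools, and the summed signal of the 3 proximal tubule markers was 398 to 425 at P1 and 416 to 468 at P2, that of Alas2 155 to 212 and 141 to 177. Of 6 stromal markers 4 were above the filter in every pool, and the summed signal of the 6 was 1526 to 1959 at P1 against 1234 to 1447 at P2, ranges that do not overlap. Foxd1, the brightest, weighs most in that sum (mean log2 9.76 at P1 and 9.13 at P2) and was not called (adjusted p = 0.078). Dcn gave -0.73, Pdgfra -0.21, Col1a1 -0.04 and Col3a1 -0.05, none of them called, and Lum lay below the filter. The summed signal of the 5 renal vesicle markers was 980 to 1460 at P1 against 1401 to 2724 at P2. In longer lists used below, 3 of 14 endothelial, 3 of 13 macrophage and 9 of 16 ureteric bud genes were bright enough to test. Their mean log2 signal in the 6 pools was 8.01 to 8.55, 7.03 to 7.30 and 7.32 to 7.48, in that order. The part of stromal, renal vesicle, tubule, red, endothelial, macrophage or ureteric bud cells in the results was not tested. In such bulk pools fewer cells of a type and less RNA per cell cannot be told apart.

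The mix of sexes also differed between pools. Xist, which is transcribed from the inactive X, read 10.78, 5.27 and 10.56 in P1 replicates 1 to 3 and 10.33, 10.37 and 11.25 at P2, so that P1 replicate 2 was low. The Y-linked Eif2s3y read 8.35, 9.19 and 8.15 at P1 and 8.30, 7.85 and 4.48 at P2, where replicate 3 was low. No sex-linked gene was called, and the results without either pool are given with the others below.

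Between P1 and P2 114 genes were called (0.959% of those tested), of which 91 rose (0.766%) and 23 fell (0.194%). At an unadjusted p under 0.05, 483 genes were higher (4.06%) and 558 lower (4.69%). The rises had a median of 1.66-fold (1.33 to 2.69), with 74 of the 91 at 1.5-fold or more and 9 at 2-fold or more. The falls had a median of 1.73-fold (1.38 to 4.31), with 5 of the 23 at 2-fold or more. Among those 5, all P2 pools of Ocm and Abi3bp and some of Cdc42ep3 and Tsga13 lay below the filter. All 114 kept their direction in each of the 3 same-numbered pairs, a criterion that 37.3% of all genes tested met. The 3 pools of P1 and the 3 of P2 did not overlap for 70 of the 91 rises and 20 of the 23 falls, beside 4.43% and 6.23% of all genes in those directions. Both traits follow in large part from the call, which was made on these same pairs and pools, and they add no separate evidence. The median of all genes was -0.02, with 5391 genes above 0 and 6494 below.

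**Figure D1:**
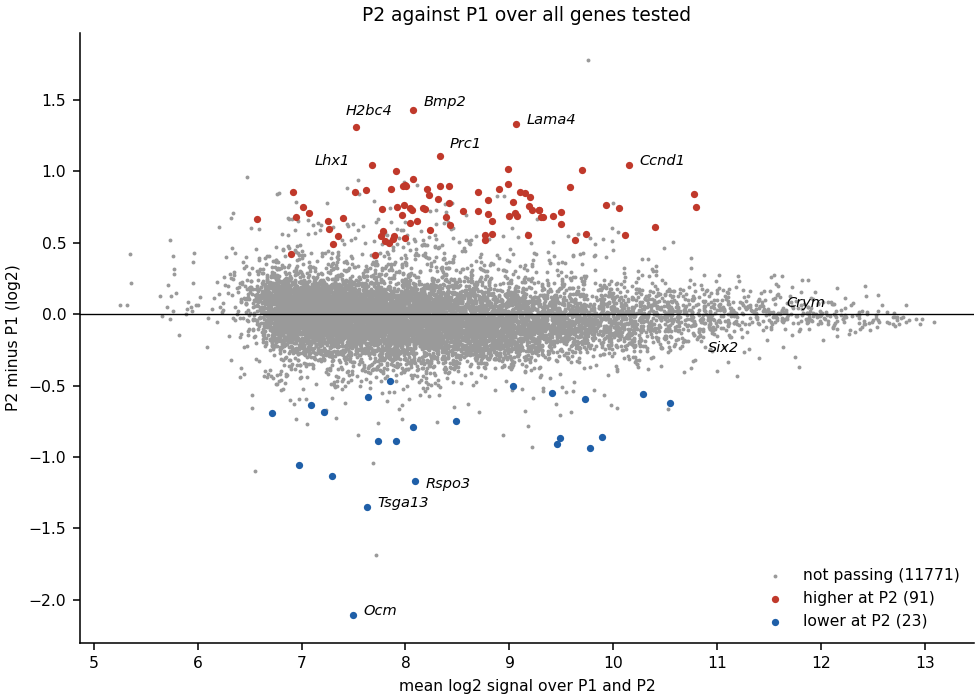
Difference between P2 and P1 (log2, vertical axis) against the mean log2 signal over the 6 pools (horizontal axis) for the 11885 genes tested, each point a gene. Red points are the 91 genes that rose, blue points the 23 that fell and grey points the others. Ocm stood at the foot and Bmp2 at the top of the called genes, and Crym lay at 0; the grey points beyond 1 in size are Xist, Eif2s3y, Uty and Kdm5d.

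How many genes passed depended on the block and on single pools. Without the replicate block 7 genes rose and 3 fell, and these were Kif14, Lama4, Cdc25c, Bmp2, Kif11, Cenpf and Igsf5 on one side and Ocm, Rspo3 and Dock5 on the other. With a block for the array set in its place there were 82 and 21. The first replicates differed from the others in 5048 genes. With P2 replicate 2 left out there were 12 rises and 2 falls, without P1 replicate 2 there were 14 and 6, without P2 replicate 3, 16 and 9, without P1 replicate 1, 17 and 6, and without P2 replicate 1, 49 and 6. Without P1 replicate 3 the counts were 131 and 12, and without P3 replicate 3, 139 and 55. The calls of 11 rises (Bmp2, Lama4, H2bc4, Ccnd1, Lhx1, Knstrn, Kif14, Kif11, Ccnb2, H2bc8 and Cdc25c) and 2 falls (Ocm and Rspo3) held with any 1 of these 7 pools left out, and the results below give those genes first.

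The genes of the cap mesenchyme list gave no call in this fit. Robo2, a receptor of the progenitors that fell, was not in this list and is given with the falls below. Of 26 cap mesenchyme genes tested none passed in either direction, and their median difference was -0.05, a value that turned to 0.025 in replicates 2 and 3 alone and 0.047 without P2 replicate 1. In P1 and P2 alone, and with array weights, Tmem100 was called higher (0.53 and 0.55) and Dpf3 (-0.46 and -0.48) and Nell2 (-0.48 and -0.45) lower. Crym, the gene of the reporter and one that encodes a thyroid hormone binding protein, read 11.36, 11.79 and 11.56 in the 3 pools of P1 and 11.21, 11.82 and 11.66 at P2, a difference of -0.01 (SE 0.16, adjusted p = 1) that was above 0 under 4 alternatives, up to 0.15 without P2 replicate 1. Six2, the homeobox factor that holds progenitors in the naive state, read 10.60, 11.01 and 11.06 at P1 and 10.44, 10.92 and 10.83 at P2 (-0.16, SE 0.15, adjusted p = 0.85). The pools of the 2 days overlapped for both genes.

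Cited1, a co-regulator found in the most naive progenitors, read 8.80, 10.00 and 10.08 at P1 and 8.36, 9.79 and 9.85 at P2. It was lower at P2 in each pair, with a mean difference of -0.29, an SE of 0.31 and an adjusted p of 0.88. Nell2, a secreted glycoprotein, came nearest to a call in the list (-0.48, SE 0.11, adjusted p = 0.053), and passed also with quantile normalization (adjusted p = 0.032) and without P3 replicate 3 (0.036). From P2 to P3, by contrast, 9 of the same 26 genes fell (0.412% of all genes fell in that comparison), among them Six2 by 1.00 and Cited1 by 1.83, and none rose. That comparison shares the P2 pools with this one, and the difference between the steps was not tested.

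Some genes of the renal vesicle rose at the same step. Of 19 tested 5 were called higher (Bmp2, Lhx1, Ccnd1, Jag1 and Pax8), where 0.766% of all genes were, and none lower, with a median of 0.41 and 16 members above 0. Lhx1, a LIM homeobox factor without which renal vesicles do not go on to nephrons, read 6.64, 7.31 and 7.52 at P1 and 7.52, 8.80 and 8.29 at P2. Pool 1 of P2 lay at the level of the highest P1 pool, while within pairs the rise was 0.88, 1.49 and 0.77. It averaged 1.04 (SE 0.14, 2.06-fold, adjusted p = 0.0027).

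Bmp2, a secreted ligand of the bone morphogenetic protein family, had the largest rise of all called genes. It read 7.10, 7.46 and 7.51 at P1 and 8.67, 8.97 and 8.72 at P2, so that every P2 pool stood above every P1 pool by more than 1 unit. The difference was 1.43 (SE 0.19, 2.69-fold, adjusted p = 0.0027). Its level had been 7.32, 7.73 and 6.89 at P0 and went on to 10.10, 10.00 and 10.01 at P3, with a difference of 0.04 from P0 to P1 and of 1.25 from P2 to P3 (adjusted p = 0.0034).

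Ccnd1 encodes cyclin D1, which takes cells from G1 into S phase and is a target of Wnt signals. The 3 pools of P1 read 8.84, 9.99 and 10.03 and those of P2 9.97, 11.21 and 10.82. The first pool of each day was the lowest, which made the days overlap, and each pair showed a rise (1.05, SE 0.12, 2.07-fold, adjusted p = 0.0016). Without the block the adjusted p was 1, as it was for Lhx1.

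Pax8, a paired box factor of the early nephron, read 8.36, 9.08 and 9.31 at P1 and 8.84, 10.12 and 9.97 at P2 (0.73, SE 0.11, adjusted p = 0.0078). Its call ended without P1 replicate 2 (adjusted p = 0.066), P2 replicate 2 (0.077) or P2 replicate 3 (0.052). Jag1, a Notch ligand, read 7.11, 7.38 and 7.77 at P1 and 7.87, 8.89 and 8.14 at P2, without overlap (0.88, SE 0.19, adjusted p = 0.041). Its call was less firm and ended with any of P1 replicates 1 and 2 or the 3 P2 pools left out (0.080 to 0.27).

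Wnt4, the signal by which progenitors become epithelium, read 7.97, 8.13 and 8.04 at P1 and 8.41, 8.95 and 8.70 at P2. All P2 pools were above all P1 pools, by 0.64 on average (SE 0.16), yet the adjusted p was 0.085. Its other probe set gave 0.44. Papss2 (0.57, adjusted p = 0.085), the cadherin Cdh6 (0.60, adjusted p = 0.14), Lef1 (0.43) and the Notch ligand Dll1 (0.40) did not pass either, and Fgf8 gave 0.18.

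Of interest, the 5 called renal vesicle genes differed by 0.02 to 0.12 from P0 to P1. The list's median difference from P0 to P1 was 0.03 with no call, and that from P2 to P3 was 0.67 with 10 genes higher, against 0.799% of all genes. Measured from P0 to P2, 6 of the 19 were higher, where 0.151% of all genes were. The mean log2 signal of the list was 7.37, 7.71 and 7.69 in the pools of P0 and 7.41, 7.63 and 7.79 at P1, then 7.84, 8.31 and 8.11 at P2 and 8.39, 9.0 and 8.88 at P3.

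**Figure D2:**
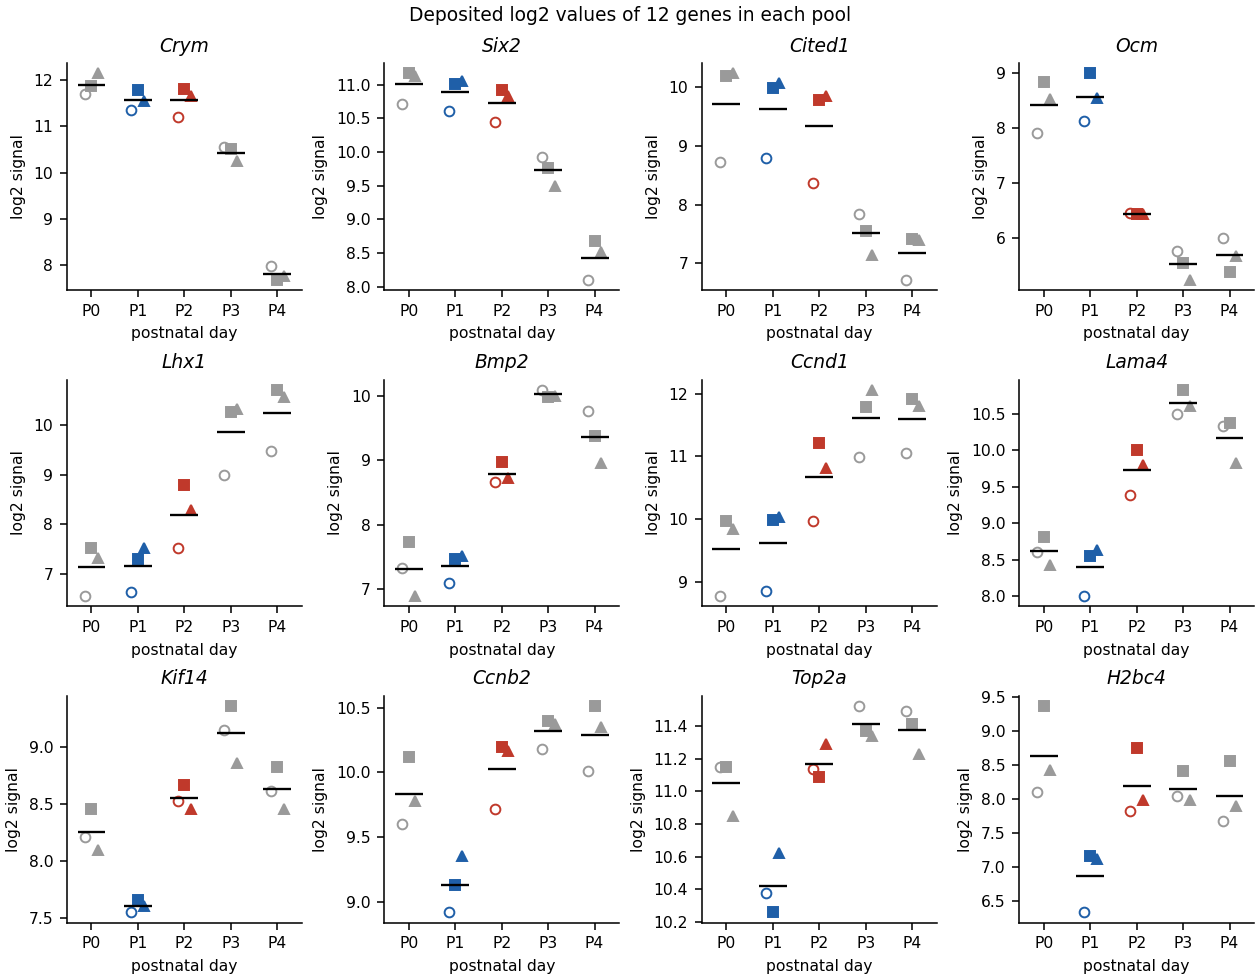
Deposited log2 values of 12 genes in each of the 15 pools by postnatal day, with circles, squares and triangles for replicates 1, 2 and 3 (the first open), black bars for day means, blue for P1, red for P2 and grey for the other days; each panel has its own vertical range. Lhx1, Bmp2, Ccnd1 and Lama4 had higher means at P2 and P3 than at P0 and P1, whereas Kif14, Ccnb2, Top2a and H2bc4 were lowest at P1. Crym, Six2 and Cited1 fell between P2 and P3, and Ocm stood near 6.44 in all 3 pools of P2.

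Among the lists, that of mitosis held the most calls. Of 34 G2/M genes tested 24 rose (0.766% of all genes rose) and none fell, with a median difference of 0.73 and all 34 above 0, the lowest being Kif20a at 0.29. The 10 not called included Plk1 (0.67, adjusted p = 0.056), Anln (0.77, adjusted p = 0.052), Cdk1 (0.55, adjusted p = 0.092) and Hmmr (0.94, adjusted p = 0.071). In the 3 pairs the list's median was 0.66, 0.91 and 0.65. With a pool left out the median stayed between 0.65 and 0.86 and all 34 remained above 0, though the number called fell to 4 without P2 replicate 2, 5 without P1 replicate 2, and 6 without P1 replicate 1 or P2 replicate 3. In replicates 2 and 3 alone the median was 0.77 with no member called. Without the block 4 were called.

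Kif14, a kinesin of the central spindle and of cytokinesis, had the smallest p of the 11885 genes. It read 7.55, 7.66 and 7.60 at P1 and 8.53, 8.67 and 8.46 at P2, a gap many times the spread within a day. The difference was 0.95 (SE 0.10, 1.93-fold, adjusted p = 0.0015). A second probe set of Kif14 was dim, at 4.42 and 4.51, and moved by 0.09.

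Kif11, the kinesin that pushes spindle poles apart, read 8.60, 8.36 and 8.65 at P1 and 9.31, 9.52 and 9.50 at P2 (0.91, SE 0.13, adjusted p = 0.0037). Ccnb2, cyclin B2, which with Cdk1 drives entry into mitosis, read 8.92, 9.13 and 9.36 at P1 and 9.72, 10.19 and 10.17 at P2 (0.89, SE 0.11, adjusted p = 0.0019). Cdc25c, the phosphatase that activates Cdk1, read 7.59, 7.55 and 7.66 at P1 and 8.33, 8.40 and 8.38 at P2 (0.77, SE 0.10, adjusted p = 0.0027). The days did not overlap for any of these genes.

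Knstrn, a spindle and kinetochore protein outside the list, read 6.93, 7.48 and 7.81 at P1 and 8.07, 8.66 and 8.49 at P2 (1.00, SE 0.14, adjusted p = 0.0033). Prc1, which bundles the microtubules of the central spindle, rose by 1.11 (SE 0.18, adjusted p = 0.0091). The third P1 pool was the highest for it, at 8.21 beside 7.45 and 7.67, and the P2 pools read 8.73, 9.05 and 8.87. The call on Prc1 ended without P1 replicate 1 (adjusted p = 0.074), P1 replicate 2 (0.079), P2 replicate 2 (0.077) or P2 replicate 3 (0.054).

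Cenpn, a centromere protein (0.90, adjusted p = 0.013), Nusap1, which binds spindle microtubules (0.90, adjusted p = 0.018), and Cep55, which acts in the final separation of daughter cells (0.90, adjusted p = 0.013), rose as well. Each of these calls ended without P1 replicate 1, P1 replicate 2, P2 replicate 2 or P2 replicate 3 (adjusted p 0.079 to 0.15), and that of Nusap1 also without P2 replicate 1 (0.085). Mki67, the proliferation antigen Ki-67, read 8.43, 8.75 and 9.18 at P1 and 9.30, 9.65 and 9.87 at P2, and Top2a, the topoisomerase that untangles sister chromatids, 10.38, 10.26 and 10.62 at P1 and 11.14, 11.08 and 11.29 at P2. Their rises of 0.82 (adjusted p = 0.0088) and 0.75 (adjusted p = 0.011) ended without any of the same 4 pools (0.062 to 0.095). A second probe set of Top2a was dim, at 5.47 and 5.61, and moved by 0.14. Among other called genes were Foxm1, the transcription factor of G2/M genes (0.59), Cdc20, an activator of the anaphase-promoting complex (0.52), its partner enzyme Ube2c (0.78), and the kinetochore gene Nuf2 (0.88). Foxm1, Cdc20 and Ube2c lost their call without P2 replicate 2 (adjusted p = 0.14, 0.23 and 0.072) and Nuf2 without P1 replicate 2 (0.16), among other pools.

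Of 37 S phase genes, those of DNA replication, 3 rose (8.11%, beside 0.766% of all genes) and none fell. Their median was 0.29, with 35 members above 0. At an unadjusted p under 0.05, 20 of the 37 were higher, where 4.06% of all genes were. The called genes were Tyms, thymidylate synthase (0.63, adjusted p = 0.017), Rrm2, the small subunit of ribonucleotide reductase (0.56, adjusted p = 0.018), and Mcm10, which acts in starting replication forks (0.54, adjusted p = 0.026). None of the 3 calls held without P1 replicate 1, P1 replicate 2 or any P2 pool (adjusted p 0.075 to 0.18). The helicase genes Mcm2 to Mcm7 gave -0.02 to 0.23 and the sliding clamp Pcna 0.24, with no call.

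Some of the histone genes that are transcribed in S phase were called. Of 11 tested 4 were called higher (36.4%, beside 0.766% of all genes) and none lower, with a median of 0.67 and all 11 above 0. H2bc4 read 6.33, 7.16 and 7.12 at P1 and 7.82, 8.75 and 7.98 at P2, without overlap (1.32, SE 0.16, 2.49-fold, adjusted p = 0.0019). H2bc8, an H2B gene outside the list, read 6.14, 6.84 and 6.48 at P1 and 7.12, 7.52 and 7.41 at P2 (0.86, SE 0.11, adjusted p = 0.0020). These genes are near copies of each other, and probes may not tell the copies apart.

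H1f2, a linker histone, rose by 1.01 (adjusted p = 0.012), H4c4 by 0.84 (adjusted p = 0.012) and H4c6 by 0.85 (adjusted p = 0.049). The call of H1f2 ended without P1 replicate 1 (adjusted p = 0.11), P1 replicate 2 (0.10), P2 replicate 1 (0.067) or P2 replicate 2 (0.11), that of H4c4 without P1 replicate 1, P1 replicate 2, P2 replicate 2 or P2 replicate 3 (0.057 to 0.11), and that of H4c6 without any of the 6 pools (0.052 to 0.24).

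On the neighbouring days these genes had another order of levels than those of the renal vesicle, a difference that was not tested. The mean log2 signal of the 34 G2/M genes was 8.81, 9.19 and 8.88 in the pools of P0, 8.14, 8.32 and 8.58 at P1, 8.80, 9.24 and 9.20 at P2 and 9.39, 9.54 and 9.40 at P3. P1 was the lowest day. From P0 to P1 the list's median was -0.63 with 7 members lower (0.16% of all genes fell in that step), and from P0 to P2 it was 0.11 with none of the 34 called. The difference of P1 from P0 was -0.65 for Kif14 (adjusted p = 0.020), -0.70 for Ccnb2 (adjusted p = 0.021) and -1.76 for H2bc4 (adjusted p = 0.00037).

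The mean of the histone genes was lowest at P1 too. Their median was -0.54 from P0 to P1 with 3 of 11 lower, and 0.10 from P0 to P2 with none called. From P2 to P3 it was -0.04, against 0.34 for the G2/M genes, a difference that was not tested. The P1 pools enter both the step before and the step after, so that a low reading of them would appear in both, and the 2 steps are not independent. Over all 91 genes that rose, the median level was 8.55 at P0, 7.94 at P1, 8.78 at P2 and 9.27 at P3, and 12 of them were also higher at P2 than at P0 (0.151% of all genes were). These genes were picked on their P1 and P2 values in the same pools. That choice by itself favours a low P1 level and a call from P0 to P2.

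**Figure D3:**
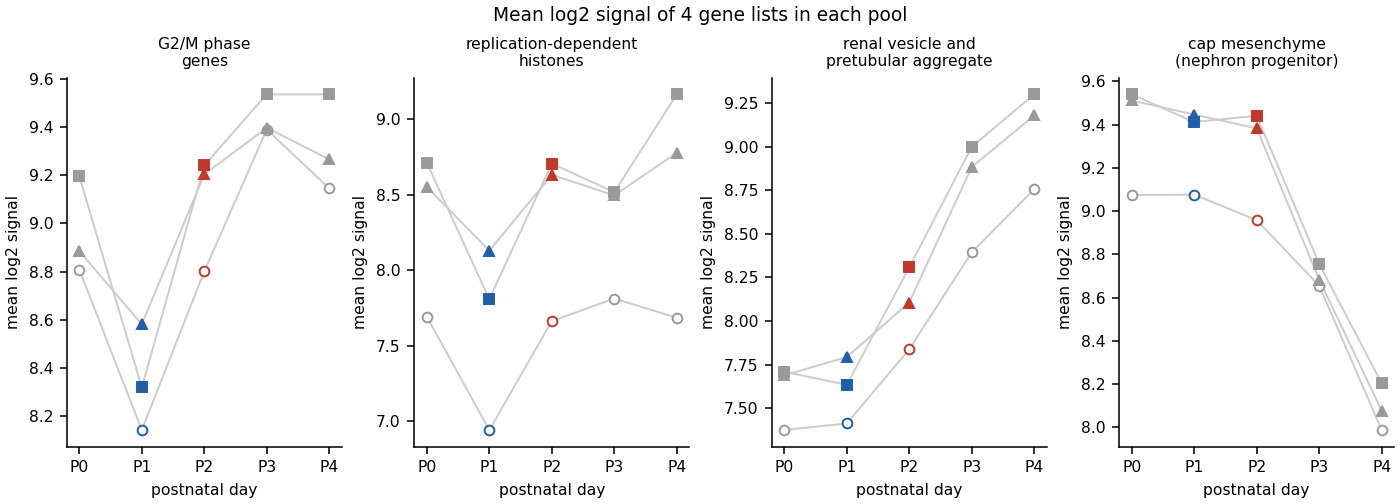
Mean log2 signal over the tested members of 4 gene lists in each pool by postnatal day, with circles, squares and triangles for replicates 1, 2 and 3 (the first open), grey lines joining the pools of one number, and blue and red for P1 and P2. The G2/M and histone genes were lowest at P1 in all 3 replicates, the renal vesicle genes were higher from P2 on, and the cap mesenchyme genes were lower at P3 and P4; vertical ranges differ between panels.

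Promoters of the called genes were read for the 2 sequence elements best known from G2/M genes. These are the cell cycle genes homology region, searched as TTTGAA or TTCGAA, and the CCAAT box, searched as CCAAT, both on either strand in the 250 bases before each RefSeq start (GRCm38.p6). Of 30 promoters of the G2/M genes tested (28 of the 34 genes had one), 50% held the first element, 86.7% the CCAAT box and 46.7% both. Among the 80 promoters of the genes that rose (73 of 91 genes) the shares were 36.2%, 55% and 25%, and among the 28 of the genes that fell (17 of 23 genes) 3.57%, 28.6% and 0%. Over the 12007 promoters of all genes tested they were 12.2%, 34.7% and 4.54%, and over all 32851 promoters 17.1%, 33.8% and 6.02%. For the renal vesicle genes, 19% of 21 promoters held the first element, 33.3% the CCAAT box and 4.76% both. A match of letters is a description, not a site of binding.

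Ccnb2, Kif11 and Top2a are shown as G2/M genes with letter matches to both elements. Lhx1 is shown as a renal vesicle gene with a rise of like size. These genes were chosen after the matches were seen. The stretches run 5′ to 3′ on the strand of the gene and end at the base before the start, and capitals mark either element on either strand. They lie at chr9:70421555-70421804 (minus strand), chr19:37376132-37376381 (plus strand), chr11:99024190-99024439 (minus strand) and chr11:84525535-84525784 (minus strand).
Ccnb2: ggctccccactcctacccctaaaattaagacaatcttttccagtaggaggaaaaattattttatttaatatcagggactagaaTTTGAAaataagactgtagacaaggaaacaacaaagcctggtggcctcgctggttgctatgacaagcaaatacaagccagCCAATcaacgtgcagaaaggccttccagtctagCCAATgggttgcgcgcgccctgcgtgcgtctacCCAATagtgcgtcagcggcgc
Kif11: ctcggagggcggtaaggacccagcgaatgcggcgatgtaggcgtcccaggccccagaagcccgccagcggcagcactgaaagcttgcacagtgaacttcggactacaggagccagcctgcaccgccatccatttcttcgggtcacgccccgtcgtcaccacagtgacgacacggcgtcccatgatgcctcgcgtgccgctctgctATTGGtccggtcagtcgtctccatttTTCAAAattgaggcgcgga
Top2a: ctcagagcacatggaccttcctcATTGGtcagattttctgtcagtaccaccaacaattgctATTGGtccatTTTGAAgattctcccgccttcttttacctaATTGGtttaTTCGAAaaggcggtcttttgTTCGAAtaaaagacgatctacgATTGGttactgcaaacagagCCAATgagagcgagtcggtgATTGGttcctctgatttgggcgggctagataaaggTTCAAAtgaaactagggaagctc
Lhx1: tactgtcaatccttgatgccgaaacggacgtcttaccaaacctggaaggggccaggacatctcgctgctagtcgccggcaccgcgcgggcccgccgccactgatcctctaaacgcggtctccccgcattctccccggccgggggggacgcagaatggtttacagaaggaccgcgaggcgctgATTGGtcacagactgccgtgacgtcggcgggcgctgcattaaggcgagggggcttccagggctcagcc
By letters alone, Ccnb2 held 3 matches to the CCAAT box and 1 to the homology region, and Kif11 1 of each. Top2a held 6 matches to the CCAAT box and 4 to the homology region, and Lhx1 a single CCAAT match. The homology region match of Ccnb2, at -167, lay further from the start than its CCAAT matches at -87, -54 and -21. The level of Ccnb2, Kif11 and Top2a was lowest at P1, and that of Lhx1 differed by 0.02 between P0 and P1. Whether the elements have any part in these levels was not tested, and genes chosen after the matches were seen cannot show it.

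Among the other rises were the laminin chains Lama4 and Lamb1. Lama4, the laminin alpha 4 chain, read 8.0, 8.55 and 8.64 at P1 and 9.39, 10.00 and 9.79 at P2, without overlap (1.33, SE 0.16, 2.51-fold, adjusted p = 0.0019). It had been 8.61, 8.81 and 8.42 at P0 and reached 10.50, 10.82 and 10.61 at P3. Lamb1, the laminin beta 1 chain, rose by 0.69 (SE 0.12, adjusted p = 0.014), and Lamc1, its gamma 1 partner, gave 0.53 (SE 0.13, adjusted p = 0.086).

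Of 27 genes of epithelial junctions and polarity 2 rose (7.41%, beside 0.766% of all genes) and none fell, with a median of 0.04. They were Lamb1 and the adhesion molecule Epcam (0.42, adjusted p = 0.048). Neither call held without P1 replicate 1, P1 replicate 2, P2 replicate 2 or P2 replicate 3 (adjusted p 0.075 to 0.31), and that of Epcam ended also without P1 replicate 3 (0.062) or P2 replicate 1 (0.12). Cdh1, which encodes E-cadherin, gave 0.01. Pcp4, a small regulator of calmodulin, read 8.08, 8.69 and 8.67 at P1 and 9.38, 9.75 and 9.36 at P2 (1.02, SE 0.15, adjusted p = 0.0046), and passed in all but the set without P2 replicate 2 (adjusted p = 0.053). Rnase12, of the ribonuclease A family, rose by 0.90 (adjusted p = 0.044), a call that ended without any 1 of the 6 pools (0.069 to 0.23).

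In the BMP list 2 of 17 genes rose (0.766% of all genes did), Bmp2 and Bmp4, with a median of 0.24 and no fall. Bmp4, another ligand of the family, read 7.44, 7.68 and 7.96 at P1 and 8.18, 8.68 and 8.41 at P2 (0.73, SE 0.16, adjusted p = 0.040), and its call ended without P1 replicate 1 or 2 or any P2 pool (0.083 to 0.23). The response genes Id1 to Id4, which BMP signals induce, gave 0.32 to 0.54 with no call, and Bmp7, the ligand of the progenitors themselves, -0.04.

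In the Notch list 2 of 21 rose (9.52%, beside 0.766% of all genes), Jag1 and Hey1, a transcriptional repressor that Notch induces, and none fell (median 0.04). Hey1 read 8.09, 9.10 and 9.23 at P1 and 8.76, 9.94 and 10.00 at P2 (0.76, SE 0.13, adjusted p = 0.011), and its call ended without P1 replicate 1, P1 replicate 2, P2 replicate 2 or P2 replicate 3 (0.080 to 0.090). The receptors Notch1, Notch2 and Notch3 gave 0.06, 0.30 and 0.04, and the target Hes1 0.14.

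Of 14 Wnt targets Ccnd1 alone rose (7.14%, median 0.14), beside 0.766% of all genes. Of 19 cyclin D, Myc and inhibitor genes it was again Ccnd1 alone (5.26%, median 0.08). Ccnd1 is in the renal vesicle list too, as are Bmp2 of the BMP list and Jag1 of the Notch list. The calls of these genes are thus counted in several lists and are not separate results. Ccnd2 gave 0.39 with an adjusted p of 0.38. None of 20 genes of the FGF response passed. Fgf9, a ligand that maintains progenitors, came nearest, with 7.85, 7.90 and 8.05 at P1 and 8.56, 9.01 and 8.41 at P2 (0.73, SE 0.16, adjusted p = 0.054), a difference larger than the spread within each day that did not pass the adjustment.

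**Figure D4:**
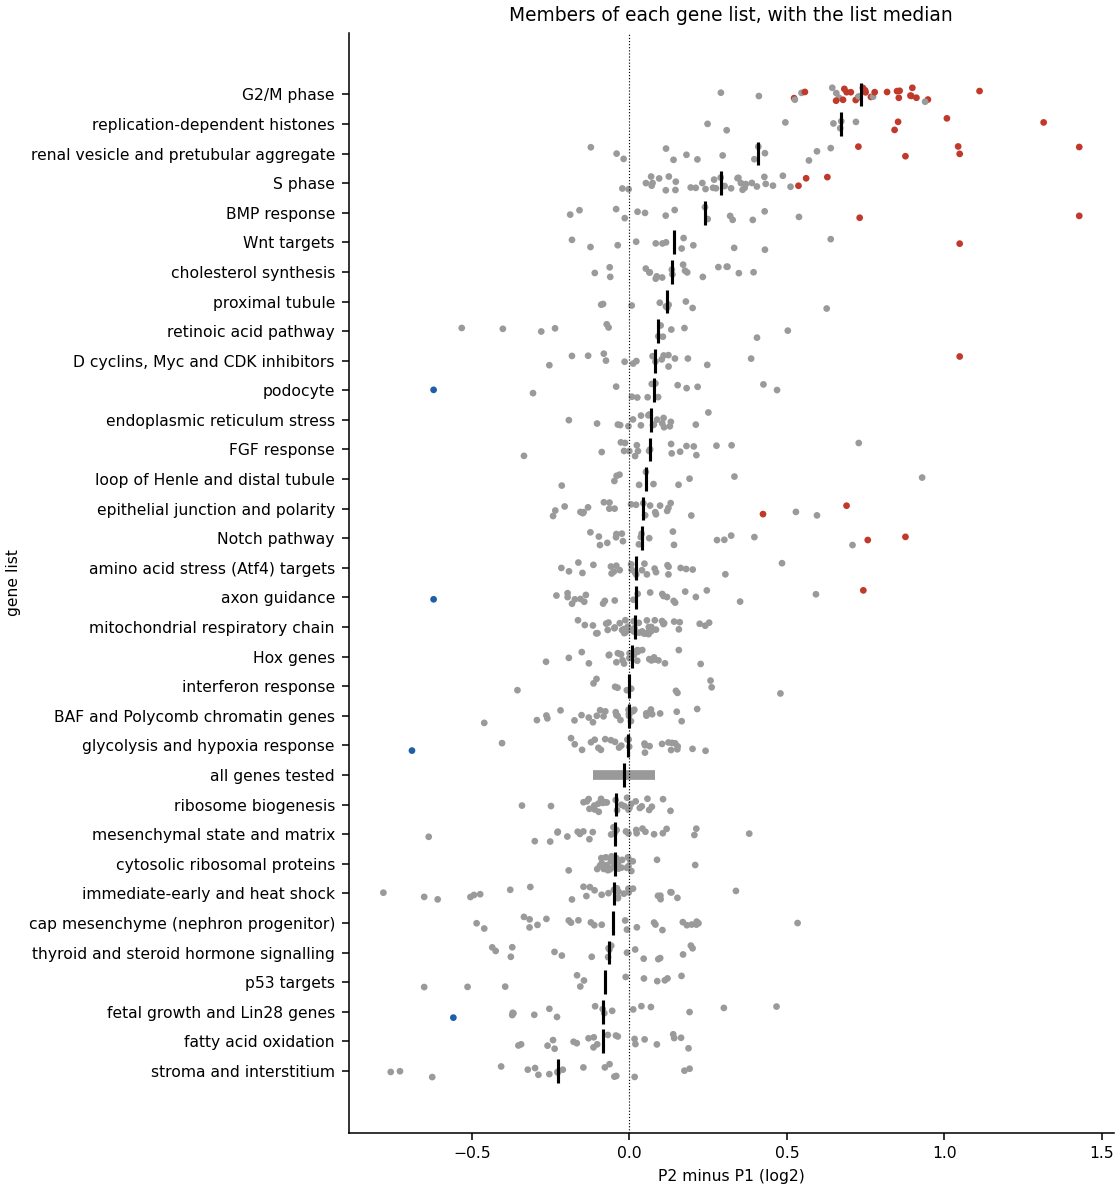
P2 minus P1 (log2, horizontal axis) for each member of the gene lists with 10 or more genes tested, one list to a row in the order of the medians (black ticks), with red for members that rose, blue for those that fell and grey for the rest; the grey bar in the row of all genes is the interquartile range. The G2/M genes, with a median of 0.73, and the histone genes, with 0.67, lie wholly to the right of 0, and the stromal genes, with -0.23, have the lowest median.

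Of the 23 genes that fell 20 were in no list. Ocm, oncomodulin, a small calcium-binding protein of the parvalbumin family, had the largest change of any called gene. It read 8.13, 8.98 and 8.54 at P1, close to its 7.91, 8.82 and 8.52 at P0, and 6.46, 6.43 and 6.44 at P2. The 3 pools of P2 lay together and below the filter for dim genes, so that they may stand near background. The fitted difference was -2.11 (SE 0.23, adjusted p = 0.0016), and with P2 set to the level of the filter the fall was at least 3.22-fold (1.69 on the log2 scale), which is still the largest among the called genes. Every pool of P2 lay below the filter also for Abi3bp, Car9 and Iffo1 (at least 1.56-fold, 1.15-fold and 1.46-fold lower by the same measure). Every pool of P1 did for H2bc8, Epcam, Kif18a and Ptger3 (at least 1.4-fold, 1.19-fold, 1.35-fold and 1.03-fold higher). Ocm was the one gene called from replicates 2 and 3 alone.

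Rspo3, a secreted R-spondin that amplifies Wnt signalling, read 8.63, 8.81 and 8.60 at P1 and 7.55, 7.47 and 7.51 at P2. Each P2 pool was at least 1 unit below each P1 pool, and the difference was -1.17 (SE 0.14, 2.25-fold, adjusted p = 0.0016). The P0 pools read 8.68, 9.12 and 8.61 and those of P3 7.67, 7.47 and 7.30, with differences of -0.12 in the step before and -0.03 in the step after, neither of which passed. Rspo1, its relative and a cap mesenchyme gene, gave -0.32 (adjusted p = 0.57).

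Dock5, an activator of the small GTPase Rac, read 9.89, 9.95 and 9.93 at P1 and 9.02, 9.07 and 9.07 at P2, with a spread within each day under 0.1 (-0.87, SE 0.13, adjusted p = 0.0053). Its call ended without P2 replicate 2 alone (adjusted p = 0.072). Met, the receptor of hepatocyte growth factor, read 8.21, 8.46 and 8.74 at P1 and 7.36, 7.73 and 7.94 at P2 (-0.79, SE 0.13, adjusted p = 0.010) and lost its call without P1 replicate 1 (0.074) or P2 replicate 2 (0.083). Cdc42ep3, an effector of the GTPase Cdc42, read 7.39, 7.96 and 8.24 at P1 and 6.56, 6.93 and 6.69 at P2 (-1.13, SE 0.19, adjusted p = 0.011), and lost its call without P2 replicate 2 (0.083) or 3 (0.059).

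Fat3, a giant atypical cadherin, fell by 0.86 (SE 0.17, adjusted p = 0.025), from 9.90, 10.72 and 10.33 to 8.93, 9.61 and 9.82. All 15 of its probe sets were lower at P2, with differences from -1.25 to -0.06. Dcx, doublecortin, which stabilises microtubules in migrating neurons, fell by 0.75 (adjusted p = 0.012), and Robo2, a Slit receptor of the progenitors that limits where the ureteric bud forms, fell by 0.62 (adjusted p = 0.046). The calls of Fat3 and Dcx ended without P1 replicate 1, P1 replicate 2, P2 replicate 1 or P2 replicate 2 (0.066 to 0.18), that of Dcx also without P2 replicate 3 (0.059), and that of Robo2 without any of the 6 pools (0.071 to 0.27). Robo2 read 11.00, 10.85 and 10.71 at P1, 10.17, 10.22 and 10.30 at P2 and 9.51, 8.97 and 9.03 at P3, against 10.83, 10.89 and 10.98 at P0. It was the one fall in the podocyte list (14 tested) and in that of axon guidance (26 tested), beside 0.194% of all genes. In the latter list Sema5a rose by 0.74 (adjusted p = 0.039), where 0.766% of all genes rose. That call ended without P1 replicate 1 or 2 or any P2 pool (0.080 to 0.25).

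Some of the genes that fell had a higher mean at P1 than at P0. They were picked on their P1 and P2 values, which by itself favours a high P1 level. Il33, a cytokine released by damaged cells, read 9.48, 9.75 and 9.60 at P0, 10.44, 10.06 and 10.24 at P1 and 9.59, 9.15 and 9.18 at P2, and was down at 7.92, 6.76 and 6.9 by P3. Abi3bp, a matrix protein, read 6.51, 6.32 and 6.21 at P0, 7.52, 7.45 and 7.55 at P1 and 6.68, 6.18 and 6.49 at P2, and Tsga13, a testis-specific gene by its name, stood at 6.9, 7.99 and 7.04, then 8.02, 8.54 and 8.36, then 6.83, 6.84 and 7.20. From P1 to P2 Il33 changed by -0.94 (adjusted p = 0.037), Abi3bp by -1.06 (adjusted p = 0.011) and Tsga13 by -1.35 (adjusted p = 0.014). The rise from P0 to P1 passed for Abi3bp alone (1.16, adjusted p = 0.020). It was the single gene called higher in that step (0.00841%), from P0 pools that all lay below the filter. The first and second P2 pools of Tsga13 lay below the filter as well. Without 1 pool these falls had adjusted p up to 0.17 for Il33 (which ended without any of the 6), 0.096 for Abi3bp (P1 replicates 1 and 2, P2 replicates 2 and 3) and 0.13 for Tsga13 (P1 replicates 1 and 2, P2 replicates 1 and 2).

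The other falls with large differences were Mrln, a micropeptide that restrains the calcium pump of muscle (-0.91, adjusted p = 0.017), Tmtc2, a protein of the endoplasmic reticulum (-0.89, adjusted p = 0.039), Car9, a carbonic anhydrase known as a target of hypoxia signalling (-0.69, adjusted p = 0.045), Rad9b of the checkpoint clamp family (-0.69, adjusted p = 0.049), and Iffo1, of the intermediate filament family (-0.64, adjusted p = 0.046). Peg3, an imprinted zinc finger gene, fell by 0.56 (adjusted p = 0.018), where 0.194% of all genes fell. It was the one call among 17 genes tested in the fetal growth list (median -0.08). Each of these 6 calls ended with at least 4 of the 6 pools left out 1 at a time (up to 0.14 for Mrln without P2 replicate 2, 0.23 for Tmtc2 without P2 replicate 1, 0.31 for Rad9b, 0.29 for Car9 and 0.25 for Iffo1 without P2 replicate 2, and 0.13 for Peg3 without P1 replicate 2). Of 30 genes tested in the glycolysis and hypoxia list, Car9 was the one that passed (0.194% of all genes fell). By a shared synonym this list held Pigq in place of Gpi1, and the fetal growth list Nckap1 in place of H19. Over all 23 falls the median level was 8.51 at P0, 8.55 at P1, 7.61 at P2 and 7.41 at P3, and 11 of the 23 were lower at P2 than at P0 as well (0.286% of all genes were). The 23 were picked on the same P2 pools, which by itself favours such a call.

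**Figure D5:**
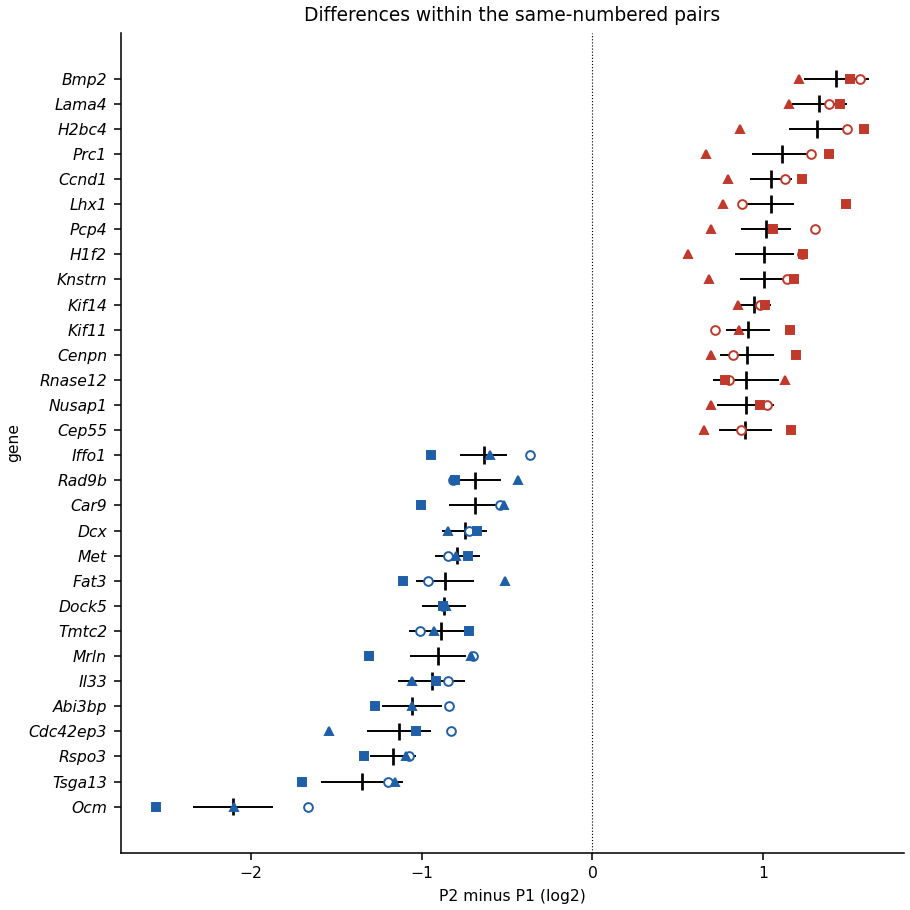
Differences between P2 and P1 within the 3 same-numbered pairs (log2, horizontal axis; circles, squares and triangles for pairs 1, 2 and 3, the first open) for the 15 largest rises (red) and the 15 largest falls (blue), with black ticks for the mean and lines for 1 standard error of the fit. All points lie on the side of 0 that their gene's mean does, as the rule for choosing these genes required, and pair 3 gave the smallest rise for 13 of the 15 rises.

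No stromal gene was called. Of 19 tested 16 were below 0 and the median was -0.23. In P1 and P2 alone Foxd1, Dcn and Acta2 were called lower, with array weights Dcn, Meis2 and Tagln, and without P3 replicate 3 Dcn and Acta2. Foxd1, the transcription factor of the cortical stroma, read 9.34, 9.99 and 9.95 at P1 and 8.85, 9.16 and 9.40 at P2 (-0.63, SE 0.15, adjusted p = 0.078), and Dcn, decorin, gave -0.73 (adjusted p = 0.27) and the smooth muscle actin gene Acta2 -0.76 (adjusted p = 0.16). Col1a1 and Col3a1, collagens of the same cells, gave -0.04 and -0.05.

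No gene passed in the remaining lists, which held markers of other cell types (proximal and distal tubule, ureteric bud, endothelium, red cells and macrophages), genes of p53, of the mesenchymal state, of immediate-early and stress responses, of mitochondria, fatty acid oxidation, cholesterol and ribosomes, interferon and Hox genes, and genes of hormone and retinoic acid signalling and chromatin. Their medians in lists of 10 or more genes lay between -0.09 and 0.14. Tgfbi, a matrix protein of the mesenchymal list, had the smallest adjusted p among these, with 10.04, 10.34 and 10.50 at P1 and 9.23, 9.98 and 9.77 at P2 (-0.64, SE 0.15, adjusted p = 0.077). Wfdc2, of the loop and distal tubule list, read 7.34, 7.87 and 7.36 at P1 and 8.30, 8.89 and 8.16 at P2 (0.93, SE 0.23, adjusted p = 0.080).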

How the data were processed

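The authors deposited 1 table of 35557 probe sets by 15 samples. Per the labels, Affymetrix Expression Console produced it, with neither version nor algorithm given in the sources used here. Ranging from 2.38 to 13.76, its deposited values were taken as log2 and used without further normalization. Differences of dim genes may be understated where background remains.

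Of the probe sets, 21789 had 1 symbol in the platform table (21698 matched by gene ID), 1621 had several and 12147 were not listed there. For the 999 of 19938 genes with several, the probe set with the highest mean was used. Genes above the median of all values (6.86) in at least 3 arrays were kept, 11885 in all.

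Tests used limma 3.58.1 in R 4.3.3, with day means, replicate number as a block, eBayes and Benjamini-Hochberg adjustment, two-sided, and were checked on simulated data. The number of arrays limits precision. The block follows the replicate numbers in the titles; same-numbered P1 and P2 pools all correlated above 0.1, as given above. Named genes were Crym, Six2, Cited1, Wnt4, Lhx1, the 15 largest called rises and falls moving alike in all 3 pairs (no clone or accession names), and up to 4 genes of smallest p from each list; H2bc8, Knstrn, Cenpf, Igsf5 and others outside it, in list or motif sentences, were named after their values were seen. The members and lists were chosen with earlier results of these data known. List symbols absent from the array were matched by synonym, which put Nckap1 in place of H19 and Pigq in place of Gpi1. Promoters are from RefSeq.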

Additional observations from a re-analysis of the deposited data

How the results depend on the processing

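The counts of called genes depended on the setting. Without the replicate block 7 genes rose, 3 fell and 4 G2/M genes were called, against 91, 23 and 24 with it. In P1 and P2 alone, with the block, 242 rose and 139 fell, with array weights 353 and 229, and with quantile normalization 146 rose. In replicates 2 and 3 alone there were 0 rises, 1 fall and 0 G2/M calls, a fit with fewer samples. With 1 pool left out at a time the rises ranged from 12 to 139, the falls from 2 to 55 and the G2/M calls from 4 to 30. The counts stayed within 1.5 times of those reported under a block for the array set, P0 to P3 alone, no filter, a stricter filter, an intensity trend with a robust prior, and the mean of a gene's probe sets. Of 163 genes named by the rule, none of the 46 called changed sign under any alternative, and 10 not called did, Crym among them. Of 37 list medians 18 changed sign under at least 1 alternative, that of cap mesenchyme among them (0.025 in replicates 2 and 3 alone, -0.13 to 0.047 with 1 pool left out); the lists with calls follow. With 1 pool left out at a time the Notch median ranged from -0.015 to 0.13 (below 0 without P1 replicate 3), the epithelial one from -0.0066 to 0.057 (below 0 without P1 replicate 3), the axon guidance one from -0.029 to 0.068 (below 0 without P1 replicate 1, at -0.00057, P1 replicate 2, at -0.016, or P2 replicate 2), and the glycolysis one from -0.050 to 0.050 (above 0 without P1 replicate 3, P2 replicate 1, at 0.025, or P2 replicate 3, at 0.013). The Notch median was -0.019 with array weights, and the glycolysis median 0.0040 in replicates 2 and 3 alone, 0.029 with quantile normalization and 0.035 with array weights. The cause was not tested. With the stricter filter no proximal tubule or erythroid gene was left. The arrays give no counts, and genes below the filter were not compared.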
